A study of Mus musculus with 12 samples.

Results

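The genes of the oxygen response were read together here: 40 genes of hypoxia signalling and glycolysis, taken by symbol from a table of 23086 gene symbols. The rule is a list of names with no threshold on a measured value. Enough counts for a test were present in 39 of the 40, among 12322 genes tested in all. By role they comprise 7 genes of oxygen sensing, 11 hypoxia targets outside glycolysis, 5 transporters and regulators of glucose use, and 17 glycolytic enzymes.

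The study measured RNA from mouse embryoid bodies, balls of differentiating embryonic stem cells, to follow a gene network driven by LHX1, a LIM homeodomain transcription factor of head development. Both lines were A2lox.cre embryonic stem cells, a type in which a transgene sits at a site that doxycycline switches on. One line carried FLAG-Lhx1 wild-type and the other FLAG-Lhx1 mutant, and the labels do not say which change the mutant holds. All bodies were differentiated over 2 days, and each line was either exposed to doxycycline for 16 h or left without it, with 3 libraries in each of the 4 groups. Each line is a single line, so the transgene's form and any other difference between the lines cannot be told apart, and neither line lacked the transgene. Nothing in the labels says that replicates came from separate cultures, and p-values therefore reflect only the spread among these libraries, which may be technical.

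In cells with enough oxygen, the prolyl hydroxylases Egln1, Egln2 and Egln3 mark the HIF alpha subunits Hif1a and Epas1, and the ubiquitin ligase subunit Vhl then sends them for destruction. When oxygen falls, HIF alpha protein accumulates, pairs with Arnt and binds short motifs near its targets, which include enzymes of glycolysis, glucose transporters and genes such as Bnip3, Adm and Vegfa. HIF alpha is controlled largely as protein, and glycolysis is also a main energy source of pluripotent cells for reasons other than low oxygen.

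The HIF core motif is ACGTG or GCGTG, and its letters can be looked for in the promoters of these genes. Promoter sequences of 36 members, 55 promoters in all, came from RefSeq on build GRCm38.p6, from 250 bases before to 50 after the start. Epas1, Bnip3l, Ndrg1 and Slc2a3 are the other members. The promoters of 5 genes are shown as examples, and no result below depends on them. They are 3 hypoxia targets in which library 3 of the untreated wild-type group stood apart, Bnip3 (chr7:138909457-138909756, minus strand), Ankrd37 (chr8:45999801-46000100, minus strand) and Egln3 (chr12:54203825-54204124, minus strand), and 2 of the enzymes that separate the lines, Ldha (chr7:46845554-46845853, plus strand, 1 of its 2 promoters) and Pgk1 (chrX:106186850-106187149, plus strand). Capitals mark a motif on either strand, so that CACGT and CACGC are the motif read from the other strand. In CACGTG and CACGCGTG a motif on each strand overlaps another, and both were counted.
Bnip3: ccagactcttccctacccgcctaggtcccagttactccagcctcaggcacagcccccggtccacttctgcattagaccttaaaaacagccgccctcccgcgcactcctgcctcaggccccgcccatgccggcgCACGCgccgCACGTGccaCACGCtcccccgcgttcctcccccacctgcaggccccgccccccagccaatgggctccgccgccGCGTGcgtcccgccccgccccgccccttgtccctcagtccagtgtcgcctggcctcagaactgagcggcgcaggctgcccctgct
Ankrd37: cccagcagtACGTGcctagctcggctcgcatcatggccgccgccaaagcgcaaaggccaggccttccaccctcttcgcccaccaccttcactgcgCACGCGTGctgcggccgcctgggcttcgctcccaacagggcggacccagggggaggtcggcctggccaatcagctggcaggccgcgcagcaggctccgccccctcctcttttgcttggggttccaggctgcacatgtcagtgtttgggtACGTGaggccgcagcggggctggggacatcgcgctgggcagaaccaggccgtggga
Egln3: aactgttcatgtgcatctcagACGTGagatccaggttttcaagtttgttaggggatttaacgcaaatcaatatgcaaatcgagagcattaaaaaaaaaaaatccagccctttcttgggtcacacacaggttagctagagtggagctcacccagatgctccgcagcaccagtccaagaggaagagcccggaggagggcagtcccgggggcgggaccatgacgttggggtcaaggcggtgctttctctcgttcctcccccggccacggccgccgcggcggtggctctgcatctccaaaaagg
Ldha: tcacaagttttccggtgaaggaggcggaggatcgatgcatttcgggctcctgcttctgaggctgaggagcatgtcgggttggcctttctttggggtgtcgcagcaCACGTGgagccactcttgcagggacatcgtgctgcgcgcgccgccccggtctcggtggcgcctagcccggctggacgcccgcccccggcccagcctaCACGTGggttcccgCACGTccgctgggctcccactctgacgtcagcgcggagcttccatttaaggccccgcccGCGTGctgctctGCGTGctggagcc
Pgk1: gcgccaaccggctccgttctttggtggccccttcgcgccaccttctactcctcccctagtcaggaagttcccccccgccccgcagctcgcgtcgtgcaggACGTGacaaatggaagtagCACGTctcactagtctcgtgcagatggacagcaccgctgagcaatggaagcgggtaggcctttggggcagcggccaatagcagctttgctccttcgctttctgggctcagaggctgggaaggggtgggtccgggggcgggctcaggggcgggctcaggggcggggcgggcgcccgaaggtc

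The Bnip3 promoter holds 5 matches and the Ankrd37 promoter 4, while the Egln3 promoter holds 1. That of Adm, not shown, holds 2, both GCGTG. Among the enzymes, the Ldha promoter shown holds 7 matches and that of Pgk1 holds 2. The other Ldha promoter holds 2, both GCGTG. Of other enzymes that separate the lines, Pgam1 holds 3 matches, Pfkl and Ldhb hold 1, and Gpi1 and Tpi1 hold 0. The promoters of Pkm hold 0 and 2, and those of Aldoa 1, 1 and 0. ACGTG occurred in 50.9% of the members' promoters, against 25.6% of 11769 promoters of genes tested and 19.6% of all 32851 promoters of the table. Counted by gene, 7 of 9 hypoxia targets (77.8%) and 10 of 17 glycolytic enzymes (58.8%) had ACGTG in at least 1 promoter, against 29.8% of genes tested. With GCGTG included, a match stood in 76.4% of the members' promoters and in 62.5% of those of genes tested. A match describes letters in this window and is not a measured binding site.

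Total counts ran from 4289984 to 4850393 per library. Levels are given as CPM, counts per 1000000 counts after TMM scaling of the libraries, and values in a group are given in the order of libraries 1, 2 and 3. Lhx1, the induced gene, measured 1.12 to 3.33 CPM in wild-type bodies without doxycycline and 289 to 307 CPM with it. In mutant bodies it measured 0.407 to 0.429 CPM without and 235 to 260 CPM with doxycycline. Summed early epiblast and pluripotency markers (8 genes, all detected) came to 4550 to 5500 CPM in every library, so the cells carried the RNA of early embryonic cells. Markers of primitive and visceral endoderm summed to 1.34 to 5.70 CPM, of trophoblast to 1.71 to 3.85 CPM and of fibroblasts to 13.0 to 23.3 CPM. Markers of blood and endothelium summed to 35.2 to 46.1 CPM in the wild-type line and 18.9 to 26.3 CPM in the mutant line, with the globins Hbb-bh1 and Hba-x at 0. Most of each sum was Pecam1 (16.1 to 43.0 CPM over the 12 libraries). Kdr reached at most 3.5 CPM, Gata1 1.52 CPM and Cdh5 0.457 CPM. Of the 2 genes of this list tested, 1 lay higher and 1 lower in the wild-type line under either treatment. The sums thus follow mainly 1 gene and do not describe the list as a whole. Summed ATF4 targets, genes of amino acid and stress signalling, were higher in the wild-type line (682 to 776 against 530 to 574 CPM), and summed endoderm markers lower. The endoderm sums rest on few counts: Gata4 held 100 over the 12 libraries and no other gene of that list more than 26. Of its 6 genes only 1 was tested. The part of these lists in the line differences was not tested. One library, wild-type 2 with doxycycline, held 14800 CPM of the ribosomal precursor Rn45s against 875 to 2620 CPM in the others.

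Oxygen sensing was led, between the lines, by an opposite placing of the HIF alpha subunits. Epas1 (HIF2 alpha; gene at chr17:86753700-86833410, plus strand) was higher in the wild-type line, and Hif1a (HIF1 alpha) was lower. Epas1 measured 28.5, 24.9 and 19.7 CPM in wild-type bodies without doxycycline and 12.1, 15.9 and 12.6 CPM with it. In mutant bodies it measured 10.9, 6.11 and 8.34 CPM without and 8.99, 8.33 and 8.03 CPM with doxycycline. All 6 wild-type libraries lay above all 6 mutant libraries, and the wild-type libraries without doxycycline stood highest. The wild-type line exceeded the mutant, on the log2 scale, by 1.53 (standard error 0.17, edgeR adjusted p = 4.01e-11) without doxycycline and 0.68 (standard error 0.19, edgeR adjusted p = 0.00259) with it. In bulk samples such as these, fewer cells of a type and less RNA per cell cannot be told apart.

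Hif1a measured 234, 229 and 184 CPM in wild-type bodies without doxycycline and 231, 231 and 218 CPM with it. Its mutant values were 267, 277 and 236 CPM without and 255, 257 and 276 CPM with the drug. The 6 wild-type libraries all lay below the 6 mutant ones, by little. The log2 fold change of wild-type over mutant was -0.27 (standard error 0.08, edgeR adjusted p = 0.0105) without doxycycline and -0.22 (standard error 0.08, edgeR adjusted p = 0.0367) with it. Without wild-type library 3 untreated the first was -0.17 (adjusted p = 0.0112) by edgeR. The second call was lost when any 1 of the 6 libraries with doxycycline was left out, with log2 values then from -0.24 to -0.18. Vhl measured 21.6, 20.1 and 24.7 CPM without and 16.9, 21.4 and 21.3 CPM with doxycycline in wild-type bodies. The mutant groups gave 27.5, 22.2 and 27.8 CPM and 27.2, 25.6 and 26.0 CPM. With doxycycline the wild-type libraries all lay below the mutant ones, and the log2 fold change was -0.40 (standard error 0.12, edgeR adjusted p = 0.00679). That call was lost without wild-type library 1 with doxycycline, at -0.30 (edgeR adjusted p = 0.0734).

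The remaining sensing genes were not called between the lines. Arnt, the partner of both alpha subunits, ranged from 75.0 to 87.7 CPM in wild-type and 67.8 to 78.7 CPM in mutant libraries. Egln2 ranged from 43.5 to 50.5 and 46.4 to 56.0 CPM. The other 2 hydroxylase genes, themselves HIF targets, spread far more. Egln1 measured 29.5, 24.6 and 67.9 CPM in wild-type bodies without doxycycline, where library 3 stood apart. Its other values were 25.8, 31.6 and 41.7 CPM in wild-type bodies with doxycycline, then 46.4, 38.5 and 44.9 CPM and 46.3, 41.7 and 36.9 CPM in mutant bodies without and with it. Those groups overlap.

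**Figure D1:**
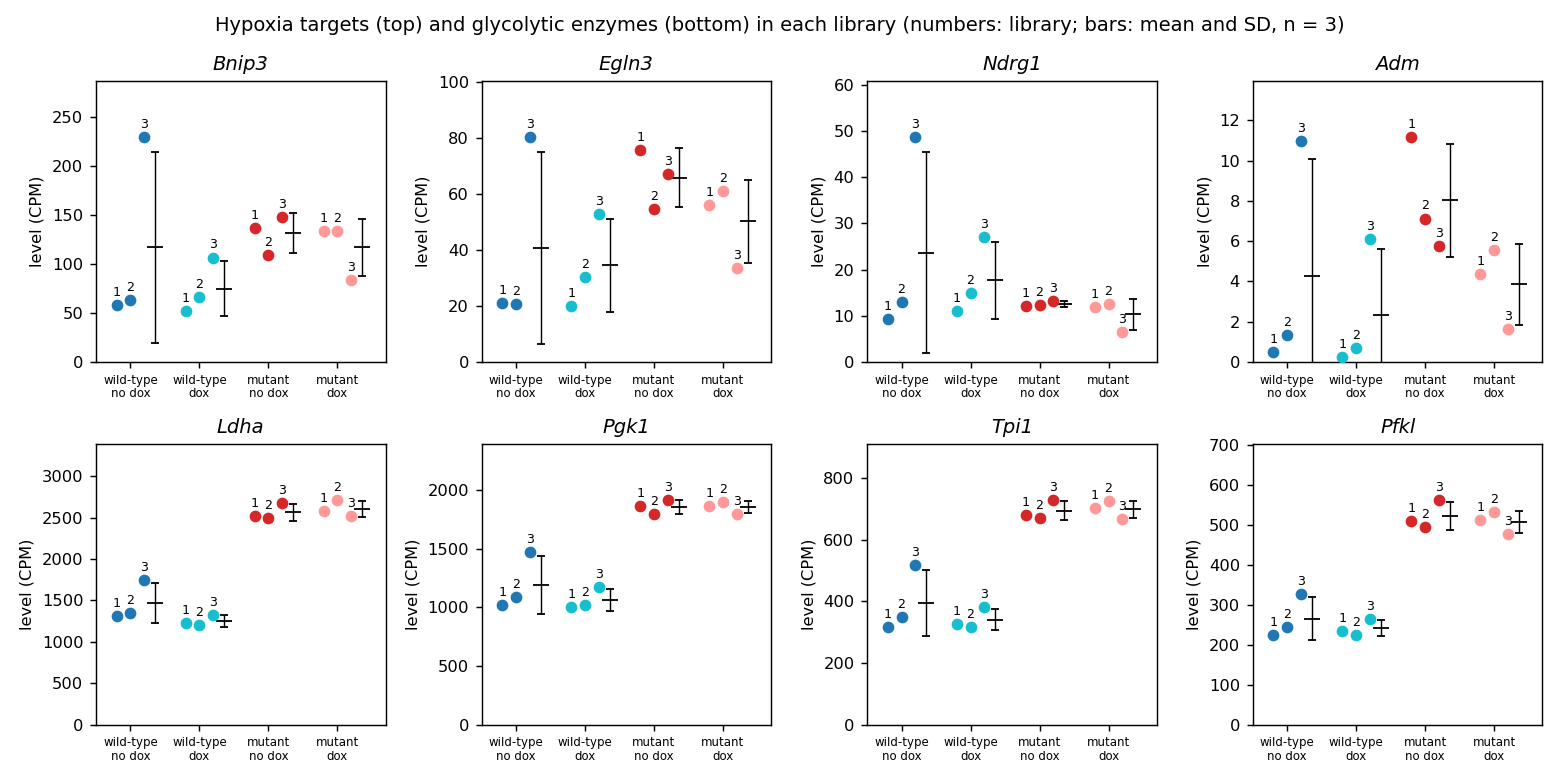
Level in CPM (y axis, from 0) of 4 hypoxia targets (top row) and 4 glycolytic enzymes (bottom row) in each of the 12 libraries, by group (x axis), with numbers giving the library and bars the mean and SD of 3 libraries (for Adm the wild-type bars stop at 0). In the top row, library 3 of the wild-type line without doxycycline lies far above its partners (229 against 58.5 and 63.3 CPM for Bnip3), and in the bottom row every wild-type library lies below every mutant library.

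Among hypoxia targets outside glycolysis, the largest differences lay between replicate libraries of a group. Bnip3, a mitochondrial receptor of mitophagy, measured 58.5, 63.3 and 229 CPM in wild-type bodies without doxycycline. With it, wild-type bodies gave 52.1, 65.8 and 107 CPM. Mutant bodies gave 137, 109 and 148 CPM without and 133, 134 and 83.4 CPM with the drug. Library 3 was the high one in both wild-type groups and the low one in the mutant group with doxycycline. The first of these exceeded the mean of its partners by a ratio of 3.76 (95% counting interval 3.38 to 4.19), and the intervals here cover counting error only.

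Egln3, a hydroxylase gene strongly induced by HIF, showed the same placing. It measured 21.2, 20.8 and 80.2 CPM in wild-type bodies without and 20.1, 30.4 and 52.8 CPM with doxycycline. Mutant bodies gave 75.6, 54.8 and 66.9 CPM and 56.1, 61.1 and 33.4 CPM in the same order of treatments. Library 3 again stood high in both wild-type groups and low in mutant bodies with doxycycline. Its ratio to its partners was 3.82 (95% counting interval 3.19 to 4.60) in the wild-type line without doxycycline.

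Ndrg1, a gene induced by hypoxia and other stress, gave 9.28, 12.9 and 48.6 CPM in wild-type bodies without doxycycline and 10.97, 14.96 and 26.96 CPM with it. Its mutant values were 12.02, 12.2 and 13.3 CPM and 11.8, 12.6 and 6.39 CPM without and with doxycycline. Only the wild-type libraries numbered 3 lay above 15 CPM, and the first of them exceeded its partners by 4.37 (95% counting interval 3.42 to 5.62). Adm, which encodes the vasodilator adrenomedullin, was rare. It gave 0.476, 1.36 and 10.98 CPM in wild-type bodies without doxycycline, from 2, 6 and 49 counts, and 0.229, 0.713 and 6.09 CPM with it, from 1, 3 and 28 counts. Mutant libraries gave 11.2, 7.12 and 5.77 CPM without and 4.38, 5.55 and 1.65 CPM with doxycycline. The ratio of library 3 to its partners was 11.8 (95% counting interval 5.56 to 29.0) without doxycycline, an interval wide from the few counts.

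Smaller but like displacements of that library occurred in Ankrd37, Vegfa, P4ha1, P4ha2 and Bnip3l. Ankrd37, an ankyrin-repeat gene induced by HIF, measured 4.28, 4.97 and 13.2 CPM in wild-type bodies without doxycycline and 4.57, 4.99 and 7.39 CPM with it. Its mutant levels were 5.37, 6.72 and 7.70 CPM and 4.60, 5.13 and 3.09 CPM. Wild-type library 3 without doxycycline was the highest of all 12.

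Vegfa, the angiogenic growth factor, measured 6.42, 6.78 and 13.7 CPM without and 7.54, 9.501 and 12.2 CPM with doxycycline in wild-type bodies, and 13.5, 8.35 and 13.0 CPM and 8.77, 9.19 and 5.97 CPM in mutant bodies. P4ha1, a collagen prolyl hydroxylase subunit, gave 13.1, 11.98 and 28.7 CPM without and 16.2, 16.6 and 20.2 CPM with doxycycline in the wild-type groups and 31.3, 23.8 and 30.2 CPM and 30.7, 30.1 and 22.5 CPM in the mutant groups. Its paralogue P4ha2 gave 10.5, 11.1 and 19.5 CPM without and 9.60, 10.5 and 16.3 CPM with doxycycline, then 12.9, 11.6 and 13.7 CPM and 10.96, 13.0 and 9.68 CPM. In all 3 genes library 3 is the highest wild-type library without doxycycline and reaches into the mutant range or above it. The lines overlap under both treatments, except that P4ha1 was lower in every wild-type library with doxycycline, without being called.

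Bnip3l, the mitophagy receptor related to Bnip3, was the 1 target outside glycolysis that separated the lines. It measured 67.8, 64.4 and 107 CPM in wild-type bodies without and 62.6, 69.1 and 77.6 CPM with doxycycline, against 171, 155 and 169 CPM and 166, 181 and 159.7 CPM in mutant bodies. Even the high library 3 stayed below every mutant library. The log2 fold change of wild-type over mutant was -1.04 (standard error 0.17, edgeR adjusted p = 0.00102) without and -1.27 (standard error 0.17, edgeR adjusted p = 0.000344) with doxycycline. The histone demethylase gene Kdm3a ranged from 102 to 136 CPM in the wild-type and 106 to 128 CPM in the mutant libraries, and Mxi1, a MAX partner, from 17.8 to 27.6 and 18.7 to 24.4 CPM. In neither did a library stand apart. Car9, the carbonic anhydrase often used as a hypoxia marker, had 0 to 4 counts per library and was not tested.

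Glucose transporters were lower in the wild-type line, with library 3 again raised. Slc2a3 (GLUT3), a high-affinity transporter, measured 234, 220.2 and 465 CPM in wild-type bodies without and 218, 252 and 332 CPM with doxycycline. In mutant bodies it measured 683, 614 and 629.7 CPM and 555, 595 and 536 CPM. The lines did not overlap, and the log2 fold change of wild-type over mutant was -1.06 (standard error 0.27, edgeR adjusted p = 0.0122) and -1.07 (standard error 0.28, edgeR adjusted p = 0.0133) without and with doxycycline. Slc2a1 (GLUT1) gave 544, 613 and 999 CPM without and 476, 478 and 639 CPM with doxycycline in the wild-type groups and 995, 910.4 and 1037 CPM and 967, 1004 and 797 CPM in the mutant groups. Without doxycycline its wild-type library 3 fell among the mutant values. With doxycycline the groups were apart, at -0.80 (standard error 0.23, edgeR adjusted p = 0.0229), a call lost when wild-type library 1 or 2 or mutant library 1 or 2 with doxycycline was left out (log2 from -0.76 to -0.72).

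Pfkfb3, which makes the activator of phosphofructokinase, measured 17.1, 20.8 and 49.8 CPM without and 17.4, 22.1 and 37.6 CPM with doxycycline in wild-type bodies and 65.0, 43.6 and 52.6 CPM and 51.7, 48.9 and 31.7 CPM in mutant bodies. Library 3 was the high wild-type library and the low mutant library with doxycycline. Slc16a3, the lactate exporter MCT4, gave 225, 227 and 341 CPM without and 188, 183 and 247 CPM with doxycycline, then 209.5, 197 and 229 CPM and 226, 240.1 and 188 CPM, with only wild-type library 3 without doxycycline well above the rest. Pdk1, which restrains pyruvate entry into mitochondria, gave 191, 208 and 248 CPM without and 163, 151 and 184 CPM with doxycycline in wild-type bodies and 207, 225 and 227 CPM and 217, 209 and 186 CPM in mutant bodies. It was lower in the wild-type line with doxycycline, at -0.29 (standard error 0.11, edgeR adjusted p = 0.0478), a call lost without wild-type library 1 or 2 or mutant library 1 or 2 with doxycycline (log2 from -0.28 to -0.23).

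Glycolytic enzymes were lower in the wild-type line for most steps of the pathway. Of 17 enzymes, 11 were lower in the wild-type line without doxycycline and 11 with it, where edgeR called 23.0% and 21.9% of all genes tested lower. All 6 wild-type libraries lay below all 6 mutant ones in 9 enzymes, and in 12 of 39 members, against 15.7% of genes tested (for the opposite order, 1 member and 15.4%, for both orders 31.2%). Ldha, which turns pyruvate into lactate, measured 1315, 1351 and 1753 CPM in wild-type bodies without and 1225, 1199.9 and 1329 CPM with doxycycline. In mutant bodies it measured 2524, 2495 and 2679.9 CPM and 2576, 2716 and 2522 CPM. The gap between the lines exceeded the spread within every group, and wild-type over mutant came to -0.80 (standard error 0.10, edgeR adjusted p = 0.00023) on the log2 scale without and -1.06 (standard error 0.10, edgeR adjusted p = 3.7e-05) with doxycycline.

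Pfkl, the liver-type phosphofructokinase of the committed step, gave 225, 244 and 328 CPM without and 235, 224 and 264 CPM with doxycycline in wild-type bodies and 511, 496 and 563 CPM and 514, 532 and 478 CPM in mutant bodies. Wild-type levels were 0.509 and 0.475 of the mutant levels in the fit without and with doxycycline, and the log2 difference was -0.98 (standard error 0.13, edgeR adjusted p = 0.000336) and -1.07 (standard error 0.13, edgeR adjusted p = 0.000194). Tpi1, triose phosphate isomerase, gave 318, 349 and 518 CPM without and 326, 316 and 380.3 CPM with doxycycline against 681, 671 and 729 CPM and 702, 724 and 669 CPM. Its log2 difference was -0.81 (standard error 0.16, edgeR adjusted p = 0.00376) and -1.03 (standard error 0.17, edgeR adjusted p = 0.000989). Library 3 was the highest wild-type library without doxycycline in both genes and still lay below the mutant range.

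Pgk1, the first ATP-making enzyme of the pathway, measured 1018, 1086 and 1471 CPM without and 1004, 1020.1 and 1173 CPM with doxycycline in wild-type and 1865, 1800.1 and 1919 CPM and 1869.6, 1903 and 1799 CPM in mutant bodies. The log2 difference was -0.64 (standard error 0.13, edgeR adjusted p = 0.00347) and -0.80 (standard error 0.13, edgeR adjusted p = 0.000999). Every wild-type library lay below every mutant one.

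Smaller gaps separated 4 further enzymes. Gpi1, glucose phosphate isomerase, measured 579, 589.9 and 678 CPM without and 599, 555 and 616 CPM with doxycycline in wild-type bodies and 838, 849.8 and 879 CPM and 818, 831 and 777 CPM in mutant bodies. Pgam1, phosphoglycerate mutase, measured 1065, 1126 and 1279.9 CPM without and 1089, 1064 and 1126 CPM with doxycycline, then 1404, 1397 and 1482 CPM and 1420.2, 1418 and 1388 CPM. Neither gene's lines overlapped, and the log2 differences without doxycycline were -0.47 and -0.30 (edgeR adjusted p = 2.34e-11 and 4.41e-07).

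Pkm, the pyruvate kinase of these cells, measured 3613, 3677 and 4091 CPM without and 3598, 3392 and 3608 CPM with doxycycline in the wild-type groups and 4592, 4591 and 4834 CPM and 4553, 4910.3 and 4621 CPM in the mutant groups. Ldhb, the other lactate dehydrogenase subunit, gave 226, 225 and 236 CPM without and 248.7, 205 and 229 CPM with doxycycline, then 301, 300.0 and 295 CPM and 309, 299 and 288 CPM. Again the lines did not overlap. Their log2 differences without doxycycline were -0.30 and -0.38 (edgeR adjusted p = 3.83e-08 and 7.99e-09), and with it -0.41 and -0.39 (edgeR adjusted p = 7.65e-12 and 4.9e-09).

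The aldolases followed. Aldoa measured 1071, 1106 and 1427 CPM without and 990.0, 951 and 1096 CPM with doxycycline in wild-type and 1540.2, 1479.5 and 1675 CPM and 1567, 1615 and 1451 CPM in mutant bodies. Its lines did not overlap, and the log2 difference was -0.38 (standard error 0.11, edgeR adjusted p = 0.0236) without doxycycline and -0.61 (standard error 0.11, edgeR adjusted p = 0.00234) with it. Aldoc gave 14.3, 17.9 and 31.6 CPM without and 21.0, 16.4 and 20.002 CPM with doxycycline in wild-type and 34.4, 34.0 and 38.1 CPM and 31.1, 28.0 and 28.0 CPM in mutant bodies. It was the 1 enzyme in which library 3 stood at least 1.5-fold above both partners, and its difference was -0.73 (standard error 0.21, edgeR adjusted p = 0.0143) without and -0.60 (standard error 0.22, edgeR adjusted p = 0.049) with doxycycline. The first Aldoa call was lost without wild-type library 1 or 2 or mutant library 1 or 3, with log2 values from -0.39 to -0.30. Without wild-type library 3 untreated, Aldoc stood at -1.14 (adjusted p = 4.94e-10) by edgeR. The second Aldoc call was lost without any 1 of the 6 libraries with doxycycline (-0.67 to -0.50), and the first without mutant library 3, at -0.68 (edgeR adjusted p = 0.0523).

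Some enzymes went otherwise. Pfkm, the muscle-type phosphofructokinase, gave 81.1, 85.2 and 85.4 CPM without and 72.7, 74.1 and 71.1 CPM with doxycycline in wild-type and 67.4, 60.7 and 74.9 CPM and 69.3, 66.7 and 67.2 CPM in mutant bodies. It was higher in the wild-type line without doxycycline, by 0.31 (standard error 0.07, edgeR adjusted p = 0.000288), and was not called with it. Hk1, a hexokinase, was lower without doxycycline, at -0.47 (standard error 0.11, edgeR adjusted p = 0.000387), and not called with it. Gapdh was called with doxycycline, at -0.24 (standard error 0.04, edgeR adjusted p = 1.93e-06), and not without it.

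Hk2, the inducible hexokinase, measured 126, 132 and 190.1 CPM without and 135, 139.7 and 169 CPM with doxycycline in wild-type bodies and 218, 186 and 191 CPM and 165, 189 and 152 CPM in mutant bodies. Pfkp, the platelet-type phosphofructokinase, gave 64.9, 57.7 and 95.5 CPM without and 70.4, 72.9 and 94.8 CPM with doxycycline, then 72.1, 72.9 and 75.5 CPM and 73.7, 72.6 and 58.7 CPM. Both overlap between the lines and were not called. Eno2, the neuronal enolase, gave 2.14, 2.71 and 3.59 CPM without and 3.20, 2.61 and 3.91 CPM with doxycycline, then 3.22, 3.05 and 2.14 CPM and 5.48, 3.42 and 3.502 CPM, and was not called either.

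Eno1 and Gapdh need care because near-identical copies hold reads. Eno1 ranged from 55.3 to 85.6 CPM in wild-type and 67.8 to 109.5 CPM in mutant libraries and was not called between lines. Its table entry held 4467 counts over the 12 libraries, against 98590 for Gm5506, whose transcript matches Eno1 at 99.5% of bases over 85.6% of its length. Gm5506 measured 1394 to 1593 CPM in the wild-type and 2026 to 2182 CPM in the mutant libraries. With the pair summed, Eno1 was lower in the wild-type line, at -0.435 on the log2 scale without (edgeR adjusted p = 4.52e-13) and -0.53 with doxycycline (edgeR adjusted p = 4.23e-16). Gapdh held 356008 counts and its copy Gm12070 171700, and summing them left the Gapdh call with doxycycline at -0.24 (edgeR adjusted p = 9.76e-07). Nothing is said in the labels of how reads were shared between a gene and its copy, and single-gene values of Eno1 and Gapdh are uncertain.

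**Figure D2:**
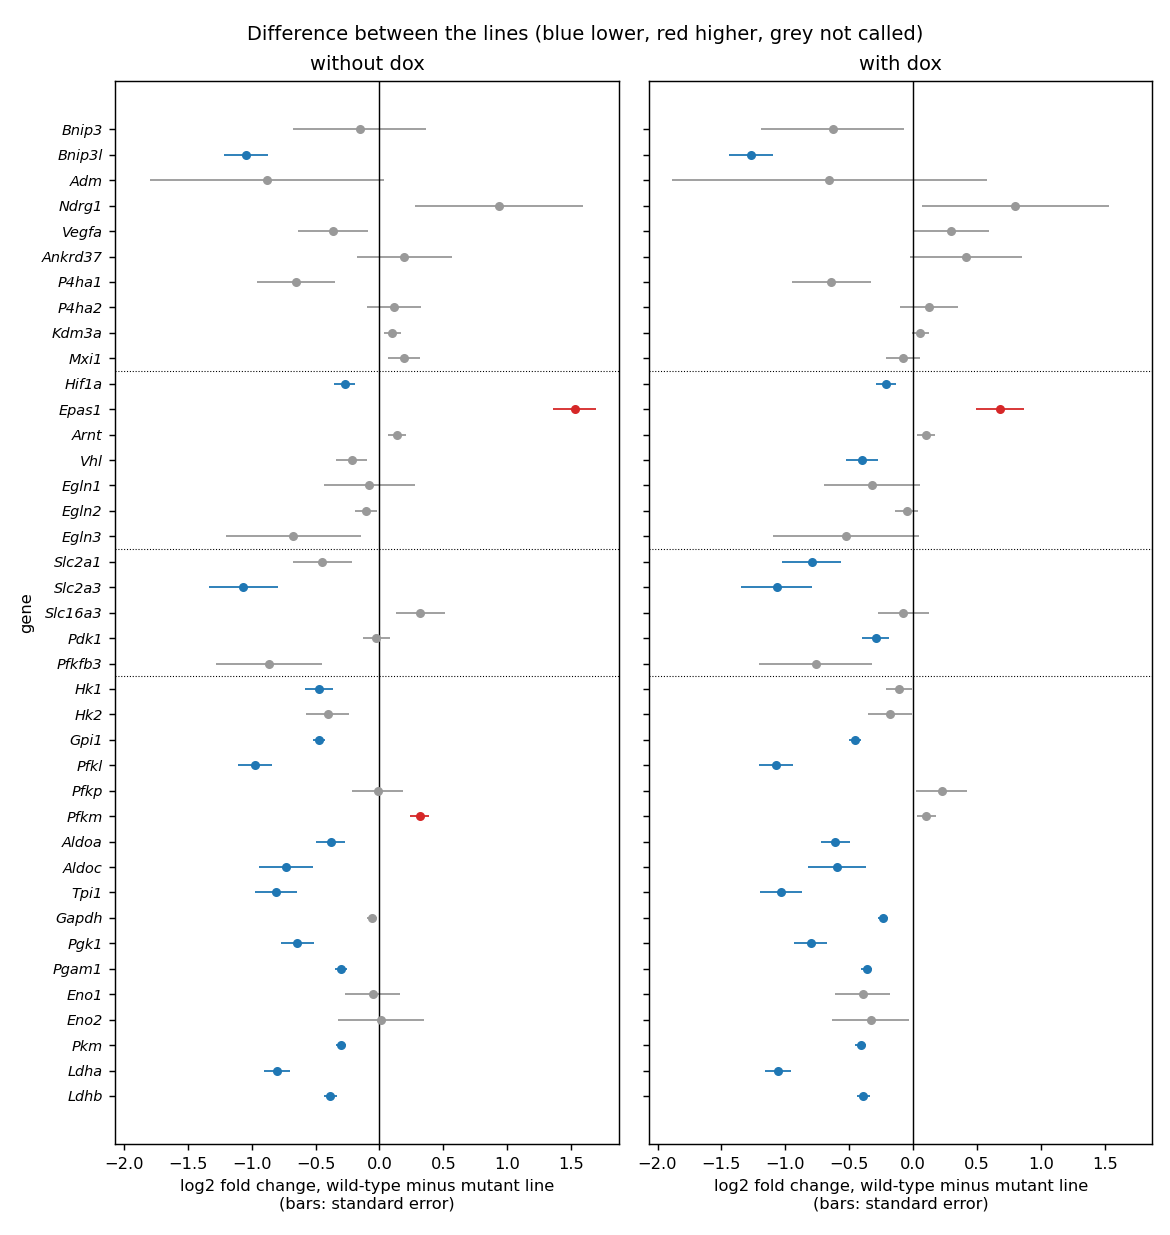
Log2 fold change of the wild-type over the mutant line (x axis) for the 39 tested genes (y axis), without and with doxycycline, with standard errors as bars and colour for the edgeR call (blue lower, red higher, grey not called). From top to bottom the blocks are hypoxia targets, oxygen sensing, transport and regulators, and glycolytic enzymes, and 11 of 17 enzymes are blue in each panel against 1 of 10 targets. With wild-type library 3 of the untreated group left out, further targets were called lower without doxycycline.

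Set side by side, enzymes and the other hypoxia targets differed in what separated them. Of 39 members, edgeR called 16 between the lines without doxycycline (45.5% of all genes tested were called) and 18 with it (44.4%), so the share called lies near the background. The direction was uneven: 2 were higher and 14 lower in the wild-type line without doxycycline, and 1 was higher and 17 lower with it. Over all genes tested, 22.6% were called higher and 23.0% lower without doxycycline, and 22.4% and 21.9% with it. The median log2 difference was -0.38 and -0.40 over the 17 enzymes, -0.03 and -0.01 over the 10 targets tested, and about 0.00 and -0.01 over all genes tested. The difference between the lists was not tested. The values without doxycycline include wild-type library 3, in which the targets stood high. Without that library, the targets Bnip3, P4ha1 and Vegfa and the enzyme Hk2 were also called lower, with values given below. The medians were not computed without it, so the contrast without doxycycline is shown only with that library included.

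The spread within a group also parted them. In library 3 of the wild-type line without doxycycline, 15 of 39 members stood at least 1.5-fold above both other libraries, against 2.46% of genes tested. That held for 9 of 11 targets counted with Egln3, 4 of 5 transporters and regulators, and 1 of 17 enzymes. The median log2 ratio of that library to its partners, with 0.5 CPM added, was 1.16 over the targets, 0.79 over transport and regulators and 0.39 over the enzymes. All 17 enzymes were above 0 there, by 0.04 to 0.96, while the median over all genes tested was 0.00. The shift was thus present in the enzymes at a smaller size.

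Library 3 of the wild-type line with doxycycline stood apart in the same direction, in 6 of 39 members, against 1.32% of genes tested. These were Egln3, Bnip3, Adm, Ndrg1, P4ha2 and Pfkfb3. Library 3 of the mutant line with doxycycline stood at least 1.5-fold below both partners in 5 members, against 1.61% of genes tested. These were Egln3, Bnip3, Adm, Ndrg1 and Pfkfb3. Library 3 of the mutant line without doxycycline stood apart in 0 members, where 1.12% of genes tested were above and 1.5% below. Some libraries with other numbers stood apart in fewer members. Wild-type library 1 was below in 2 with doxycycline (1.73% of genes tested) and in 1 without it (2.23%). Mutant library 1 was above in 1 member without (1.08%) and 1 with doxycycline (0.974%), and untreated mutant library 2 was below in 1 (1.62%). The labels give no batch, oxygen level, culture size or harvest note by which these libraries could be split.

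Other measures of the first of these libraries were as follows. Its total of 4554572 counts lay within the range of the 12. Summed ATF4 targets came to 692 CPM beside 682 and 698 CPM in its partners, and summed pluripotency markers to 4880 beside 5150 and 5100 CPM. Fibroblast markers summed to 23.3 CPM beside 18.6 and 15.4 CPM, and Rn45s 2350 CPM beside 1100 and 1630 CPM. The part of these in the shift was not tested. Of 31 further hypoxia targets tested, 10 stood at least 1.5-fold above both partners there, and 1 of 24 further genes of carbon metabolism did, Pdk2, named after its values were seen. Against the 6 mutant libraries, it lay above all of them in 8 of 11 targets and 2 of 17 enzymes, where 33.0% of genes tested did. It lay below all of them in 1 target and 10 enzymes, against 32.7% of genes tested. Vegfa and Mxi1 were counted above by small margins (13.67 against 13.53 CPM and 24.43 against 24.38 CPM).

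**Figure D3:**
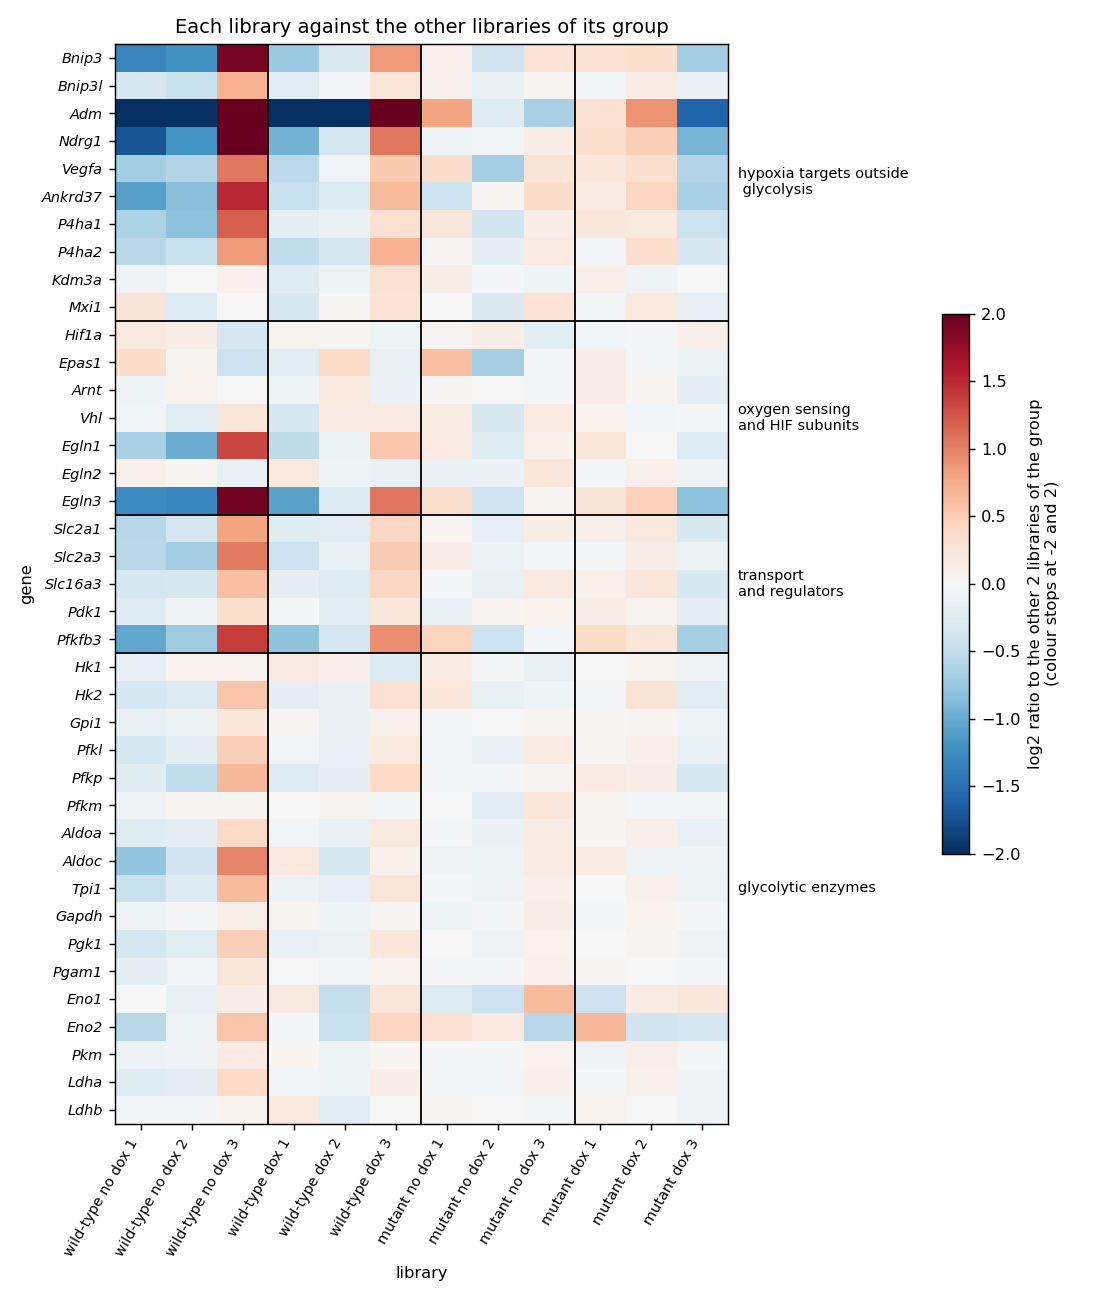
Log2 ratio of each library (x axis) to the mean of the other 2 libraries of its group, for each tested gene (y axis, grouped by role), with red above and blue below and the colour stopping at 2 in size. The third library of both wild-type groups is red over most hypoxia targets and transporters, more weakly so over the enzymes, and the third mutant library with doxycycline is blue over nearly all members (37 of 39), most deeply over the targets.

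Library 3 of the wild-type line without doxycycline decided several line comparisons. Without it, edgeR called 24 members between the lines without doxycycline, 22 of them lower, in place of 16. In that fit 41.2% of all genes tested were called, and 20.7% were called lower. Newly called were Egln3 at -1.64 (adjusted p = 0.0215), Pfkfb3 at -1.49 (adjusted p = 0.0178), P4ha1 at -1.18 (adjusted p = 2.8e-08) and Bnip3 at -1.10 (adjusted p = 0.0387), each from edgeR. Vegfa at -0.81 (adjusted p = 0.00465), Slc2a1 at -0.76 (adjusted p = 0.00713), Egln1 at -0.68 (adjusted p = 0.00164) and Hk2 at -0.62 (adjusted p = 0.00351) were called by edgeR as well. With both wild-type libraries 3 left out, a choice made after seeing the data, 26 were called, 24 of them lower, where 40.7% of genes tested were called and 20.3% were lower. Adm was then at -3.07 (adjusted p = 3.99e-05) by edgeR, where the wild-type libraries left held 2 and 6 counts.

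Calls for doxycycline among these genes lay near the background share. In the wild-type line edgeR called 3 of 39 members, against 5.32% of all genes tested: 1 rose (2.76% of genes did) and 2 fell (2.56%). The log2 fold change lay below 0 in 34 of 39 members, with a median of -0.185. Over all genes tested it did so in 6256 of 12322, with a median of -0.003. Untreated library 3 lay above the mean of its partners in 35 of 39 members and in 6180 of 12322 genes tested. The part of that library in the lean was not tested. Epas1 fell from 28.5, 24.9 and 19.7 to 12.1, 15.9 and 12.6 CPM, with no overlap and a log2 fold change of -0.85 (standard error 0.15, edgeR adjusted p = 6.77e-05). Hk1 (gene at chr10:62268855-62379908, minus strand) rose from 21.6, 24.2 and 24.2 to 34.5, 33.7 and 28.3 CPM, again without overlap, by 0.46 (standard error 0.11, edgeR adjusted p = 0.00535). Gapdh fell from 6249, 6414 and 6796 to 6037, 5628 and 5925 CPM, a log2 change of -0.15 (standard error 0.04, edgeR adjusted p = 0.0151). The Epas1 and Hk1 calls held in every setting run. That of Gapdh was lost without wild-type library 3 without doxycycline, at -0.11 (edgeR adjusted p = 0.105), and without library 2 or 3 with it (adjusted p = 0.0724 and 0.0547). It was also lost by limma-voom and in the edgeR fit on the compared libraries alone. Each of these called 2 members, among 648 and 549 genes called in all.

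Counted by overlap, 1 member lay higher in every wild-type library with doxycycline (9.84% of genes tested) and 5 lay lower (9.06%), or 6 of 39 against 18.9%. The first was Hk1, and the others were Epas1, Pdk1, Pfkm, Gapdh and Pkm. Pdk1 measured 191, 208 and 248 CPM without and 163, 151 and 184 CPM with doxycycline, but its log2 fold change was -0.38 (standard error 0.11, edgeR adjusted p = 0.0853) and it was not called. It was called without library 3 of the untreated group, at -0.27 (adjusted p = 0.0301) by edgeR, and without library 1 of that group or library 3 with doxycycline (edgeR adjusted p = 0.00654 and 0.0159). For the hypoxia targets most displaced in the libraries numbered 3, the direction turned on those libraries. The log2 fold change of Bnip3 was -0.65 (standard error 0.56, edgeR adjusted p = 0.678) and that of Egln3 was -0.24 (standard error 0.60, edgeR adjusted p = 0.916). Without untreated library 3 they turned to 0.30 and 0.73, Ndrg1 from -0.42 to 0.68, and Adm from -0.84 to 1.36. With both wild-type libraries 3 out, Bnip3 was -0.05 and Adm -0.95, while Egln3 and Ndrg1 were 0.26 and 0.22. Egln3 also turned, to 0.03, without wild-type library 1 with doxycycline. None of these 4 was called either way.

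In the mutant line 0 of 39 members were called by edgeR, against 0.0162% of all genes tested. An unadjusted edgeR p under 0.05 was found for 1 of 39 members, Kdm3a, and for 578 of 12322 genes tested. Epas1 measured 10.9, 6.11 and 8.34 CPM without and 8.99, 8.33 and 8.03 CPM with doxycycline. Hk1 measured 35.0, 32.2 and 30.2 CPM and 34.6, 35.9 and 33.6 CPM. Both pairs of groups overlap. Without overlap, 1 member lay higher and 6 lower with doxycycline (5.3% and 5.28% of genes tested), or 7 of 39 against 10.6%. The first was Eno2, and the others were Adm, Ankrd37, Kdm3a, Slc2a3, Gpi1 and Aldoc. Fitted on the 6 mutant libraries alone, edgeR called 1 member, Slc2a3, at -0.19 (adjusted p = 0.0285), among 5 genes called in all. DESeq2 and limma-voom called 0.

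The difference between the lines' responses was called by edgeR for 0 of 39 members, against 2.49% of all genes tested. An unadjusted edgeR p under 0.05 was found for 4 of 39 members (Epas1, Hk1, Pfkm and Gapdh) and for 1590 of 12322 genes tested. For Epas1 the difference was -0.85 (standard error 0.26, edgeR adjusted p = 0.0602), so that the fall in the wild-type line is not shown to differ from the mutant line. It was called without wild-type library 3 untreated (edgeR adjusted p = 0.0153), without wild-type library 2 with doxycycline (0.0313) and without mutant library 1 untreated (0.0168). For Hk1 the difference was 0.36 (standard error 0.15, edgeR adjusted p = 0.258) and for Gapdh -0.18 (standard error 0.06, edgeR adjusted p = 0.0872). Gapdh was called without wild-type library 1 with doxycycline (edgeR adjusted p = 0.0393) or mutant library 3 untreated (0.0185), and Vegfa without wild-type library 3 untreated, at 1.11 (edgeR adjusted p = 0.041). DESeq2 and limma-voom called 0 members, among 153 and 304 genes called in all.

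**Figure D4:**
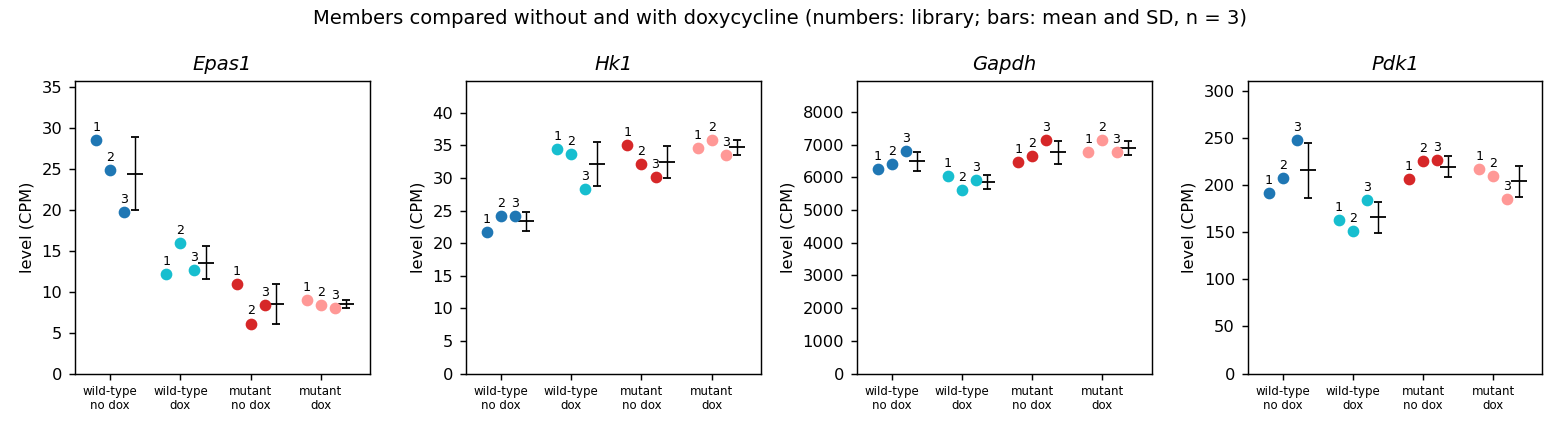
Level in CPM (y axis, from 0) of Epas1, Hk1, Gapdh and Pdk1 in each library by group (x axis), with numbers giving the library and bars the mean and SD of 3 libraries. In wild-type bodies Epas1, Gapdh and Pdk1 were lower and Hk1 higher in all 3 libraries with doxycycline than in all 3 without it, and Pdk1 was not called.

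Isozyme shares were compared per length, as counts per kilobase of merged exons within a family, and describe levels. Among phosphofructokinases, Pfkl made up 56.3% ± 3.35 (SD, n = 3) in wild-type bodies without doxycycline and 56.6% ± 1.66 with it, against 75.3% ± 0.51 and 75.0% ± 0.758 in mutant bodies. Pfkm took 36.1% ± 4.20 and 34.2% ± 2.52 in the wild-type line against 19.4% ± 0.753 and 20% ± 0.973 in the mutant line. The ranges of the lines did not overlap for either gene. Ldha made up 75.1% ± 2.45 and 72.3% ± 1.95 of lactate dehydrogenase in the wild-type groups and 80.3% ± 0.767 and 80.5% ± 0.683 in the mutant groups.

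Between the HIF alpha genes, Epas1 took 10.6% ± 0.688 (SD, n = 3) in wild-type bodies without doxycycline and 5.93% ± 0.788 with it. In mutant bodies it took 3.34% ± 0.963 and 3.29% ± 0.298. Hif1a held the rest and was the more abundant per length in every library. Slc2a3 took 16.8% ± 1.83 and 19.5% ± 1.21 of the glucose transporter pair in the wild-type groups, against 24.1% ± 1.19 and 22.9% ± 1.49 in the mutant groups. Hk2 was the main hexokinase, with group means of 86.6% to 89.9%, and Aldoa the main aldolase, with 97.5% to 98.1%. These shares depend on the length used: with the longest transcript in place of merged exons the group means of Pfkl were 65.2%, 65.2%, 81.5% and 81.3%.

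**Figure D5:**
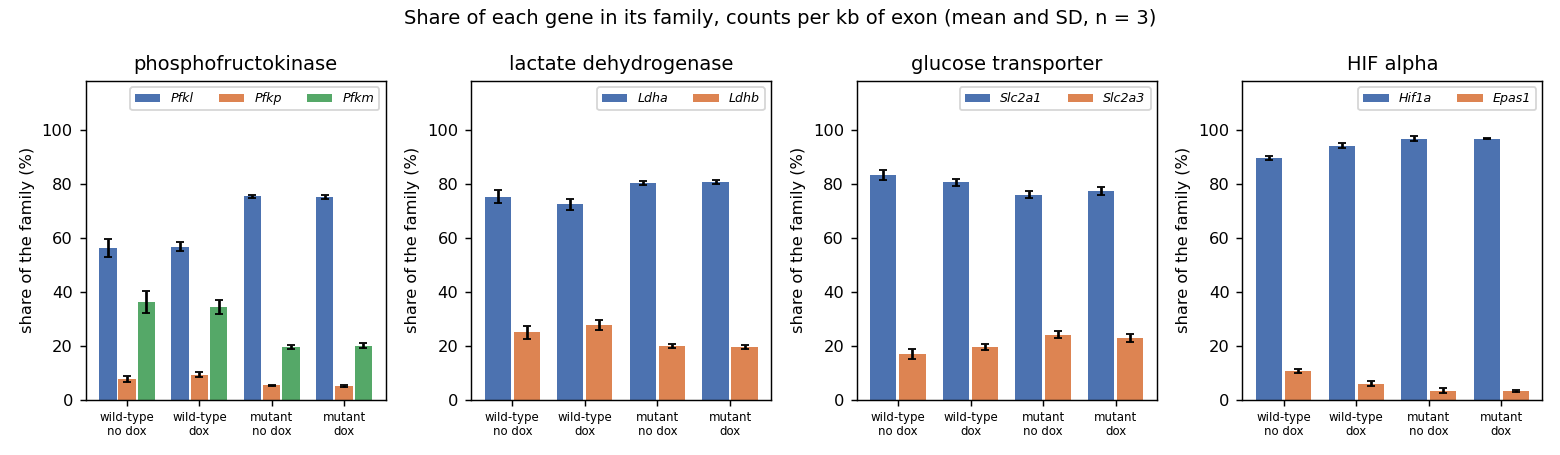
Share of each gene in its family (y axis, percent of counts per kilobase of exon, from 0) by group (x axis), as mean and SD of 3 libraries, for 4 families. Pfkl takes 56.3% and 56.6% in the wild-type groups and 75.3% and 75.0% in the mutant groups, and Epas1 is highest in wild-type bodies without doxycycline.

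The 17 enzymes together took 1.46% to 1.87% of all counts in wild-type libraries and 2.14% to 2.30% in mutant libraries. The highest wild-type share was that of library 3 without doxycycline. Without it the wild-type range was 1.46% to 1.62%.

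Other genes of the 2 pathways were read beside the members. Of 34 further hypoxia targets, 31 were tested, with a median log2 response to doxycycline of -0.12 in the wild-type and -0.06 in the mutant line. Between the lines, 6 were higher and 8 lower in the wild-type line without doxycycline, and 6 were higher and 9 lower with it, a share near the 45.5% and 44.4% of all genes called. Those with the smallest adjusted p without doxycycline were Hmox1, heme oxygenase, at 1.22, Zfp395 at -0.91, Angptl4 at 1.39 and Kdm4c at 0.40. Of 30 further genes of carbon metabolism, 24 were tested, and the same medians were -0.01 and 0.03. Without doxycycline 6 were higher and 2 lower in the wild-type line, with doxycycline 5 and 3, a share below that of all genes. Pgd and G6pdx of the pentose phosphate pathway stood at 0.35 and 0.25, and Pdhb and Pdha1 of pyruvate dehydrogenase at 0.37 and 0.29, on the log2 scale without doxycycline. Those 4 genes were named for their smallest adjusted p and do not describe either pathway as a whole. Without doxycycline 16 of the 24 genes were not called between the lines, and the median log2 difference over all 24 was 0.04.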

How the data were processed

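RNA from 12 libraries of mouse embryoid bodies was measured, 3 per group. A TruSeq RNA kit was used, per the labels' protocols. Trimmomatic 0.33, TopHat2 2.1.1, limma and the mm10 genome are named by the submitters' processing notes. Counting tool, annotation and strand were not given in the sources used here. The deposited values are raw counts per gene symbol.

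The counts were fitted with edgeR 4.0.16 in R 4.3.3: TMM scaling, filterByExpr (minimum count 10, total 15), and a robust quasi-likelihood fit of all 12 libraries with 1 mean per group. This kept 12322 of 23086 symbols and 99.8% of counts. A call needs a Benjamini-Hochberg adjusted p below 0.05 over all genes tested. The 5 comparisons were doxycycline within either line, the contrast between these responses, and wild-type against mutant line under either treatment, and they share libraries. Standard errors were taken from the F statistic. A library stood apart where it lay at least 1.5-fold from both others of its group, and exact 95% intervals of its ratio cover counting error only. Exon lengths came from GENCODE M21. The fit was tested on simulated data, where it recovered 54% to 80% of 1.5-fold changes in the 5 comparisons. Unchanged genes made up 3.83% to 8.52% of the calls there, with 7.03% in the wild-type response and 8.52% in the difference of responses. Replicates of a group differed by more than sampling noise (lowest chi-square per degree of freedom 1.11), and none were merged.

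Members got values in every library where they were called, where a library stood apart, or to compare isozymes. Further lists are given as counts with at most 4 genes named by smallest adjusted p. Members and lists were chosen with earlier results of these data known. Alternatives were DESeq2 1.42.0, limma-voom 3.58.1, other scalings, no filter, the replicate number as a block, only the compared libraries, and libraries left out. Of these, leaving out both wild-type libraries 3, alone or with mutant library 3 with doxycycline, and summing near-identical copies were chosen after seeing the data.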

Additional observations from a re-analysis of the deposited data

How the results depend on the processing

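DESeq2 called 380 genes in the wild-type doxycycline response, against 655 by edgeR, and 153 against 307 in the difference of responses. Fitted on the compared libraries alone, the mutant response gave 5 genes and 1 member, and the wild-type response 549 genes and 2 members. In such fits the lines differed in 12 members and 5396 genes without doxycycline, against 16 and 5611 in the main fit. With doxycycline they differed in 19 members and 5507 genes, against 18 and 5466. For the difference of responses, 2 members (Epas1 and Pdk1) and 369 genes were called with no filter on low counts. With wild-type library 3 untreated and library 2 with doxycycline left out, 1 member and 292 genes were called. With both wild-type libraries 3 left out, 1 member and 261 genes were called. With mutant library 3 with doxycycline also out, 2 members (Slc16a3 and Slc2a1) and 211 genes were called. The settings with both libraries 3 out were chosen after seeing the data. They gave 26 and 26 members between the lines without doxycycline (5060 and 5017 genes), and the last gave 6 in the wild-type response (456 genes). Leaving out 1 library gave 0 to 2 members in the difference of responses (229 to 322 genes) and 2 to 4 in the wild-type response (501 to 599 genes). Between the lines it gave 14 to 24 members without doxycycline (4914 to 5140 genes) and 13 to 16 with it (4748 to 4957 genes).

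The wild-type log2 responses of Adm, Bnip3, Egln3 and Ndrg1, all uncalled, changed sign in some settings. With 1 library left out they ran from -3.15 to 1.36, -0.997 to 0.30, -0.70 to 0.73 and -0.88 to 0.68. With wild-type library 3 untreated and library 2 with doxycycline out, they were 1.77, 0.38, 0.81 and 0.78. With both wild-type libraries 3 out, Egln3 and Ndrg1 were 0.26 and 0.22, and also 0.26 and 0.22 with the mutant library out, while Adm and Bnip3 stayed below 0 (-0.95 and -0.05 in both). The cause was not tested. For the members' called log2 fold changes, those 4 responses and the Epas1 difference of responses, 718 alternative values were computed: 13 reversed, 40 lost a call, 6 gained one (all Epas1) and 659 kept direction and call. Members newly called elsewhere are not in that count. Other scalings changed no member count by over 1.5 times.

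Over all genes tested, replicate numbers did not pair the libraries: same-number correlations of deviations ran from -0.0712 to 0.0794, and others from -0.097 to 0.087. These correlations do not describe the members alone. Among the members, both wild-type libraries 3 stood high in many of the same genes, and mutant library 3 with doxycycline stood low. A fit with the replicate number as a block called 618, 2, 286, 5502 and 5354 genes and 3, 0, 0, 16 and 18 members in the 5 comparisons.

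At 4289984 to 4850393 counts per library, changes in Adm, Car9, Eno2 and Ankrd37 were poorly resolved.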
